A study of Mus musculus with 8 samples.

Results

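Classical monocytes of the mouse heart were taken as the Ly6c2/Chil3 cells of 4 single-cell libraries, 190 of the 27053 cell barcodes that were kept. A barcode was kept with 200 to 6000 genes, 500 to 30000 UMIs (unique molecular identifiers, each standing for 1 captured transcript) and less than 15% of its UMIs from mitochondrial genes. A kept barcode counted as a Ly6c2/Chil3 cell with at least 3 UMIs of Ly6c2 and Chil3 together, at least 5 of Lyz2, fewer than 5 of C1qa, C1qb and C1qc together, and 0 of Retnlg, Cd3e and Cd79a. The cells were therefore chosen by measured values, and the levels of these 9 genes are a description of that choice. The other markers given for the cells were Plac8 and Fn1, which the rule did not use.

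Classical monocytes are made in the bone marrow, circulate in the blood and enter inflamed tissue along the chemokine receptor Ccr2. They carry the surface protein Ly6c2 and the secreted chitinase-like protein Chil3 (Ym1), and in tissue they can turn into macrophages or take on MHC class II and antigen-presenting functions. In the heart under pressure overload, Ccr2-dependent monocytes are known to add to the macrophages that have lived in the heart since before birth.

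The study compared sham surgery with transverse aortic constriction (TAC), in which a suture narrows the aortic arch and raises the pressure load on the left ventricle. All mice were wild-type C57BL/6J males, operated at 8 weeks of age, and sham mice had the same surgery without ligation. Hearts were taken 2, 4 or 6 weeks after constriction (TAC-2w, TAC-4w, TAC-6w), with 1 library and 1 tissue section per condition, while the week of the sham hearts and the number of mice behind each library were not given in the sources used here. Per the labels, the TAC-2w library was batch 1, TAC-4w batch 2, and TAC-6w and sham batch 3, so only TAC-6w and sham share a batch and, for TAC-4w, batch and condition cannot be told apart. With 1 library per condition there is no test between conditions. All intervals are exact 95% intervals that cover counting error only, and no value has a replicate check. Wherever 4 values stand in a row, sham comes first, followed by the TAC time points from the earliest to the latest. The labels describe a preparation of nuclei whereas the study's methods describe one of cells, and which was used was not settled here.

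The genes that chose the cells lie on different chromosomes in build GRCm38.p6. Ly6c2 lies on chromosome 15, from 75108161 to 75112066, beside its near copy Ly6c1 at 75044018 to 75048920. Chil3 lies on chromosome 3, from 106147554 to 106167564, and Lyz2 on chromosome 10, from 117277541 to 117282272. Chil4 and Lyz1 are near copies of the latter pair, so reads of each pair could have been split in the counting. The promoters of the 3 genes that were required to be present are shown because their transcripts define these cells; each runs from 250 bases before to 50 bases after an annotated start of the gene, on the minus strand of the chromosome, as given by RefSeq. Capitals mark AGGAAGT or its reverse complement ACTTCCT, the core sequence bound by the myeloid factor PU.1 (gene Spi1) and other ETS factors.
Ly6c2, chr15:75111922-75112221: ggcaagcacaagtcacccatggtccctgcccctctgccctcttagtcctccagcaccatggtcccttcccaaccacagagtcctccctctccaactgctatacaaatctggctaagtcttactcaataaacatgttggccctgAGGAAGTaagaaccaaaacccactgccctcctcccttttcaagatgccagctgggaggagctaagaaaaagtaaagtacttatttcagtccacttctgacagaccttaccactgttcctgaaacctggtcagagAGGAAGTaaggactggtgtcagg
Chil3, chr3:106167515-106167814: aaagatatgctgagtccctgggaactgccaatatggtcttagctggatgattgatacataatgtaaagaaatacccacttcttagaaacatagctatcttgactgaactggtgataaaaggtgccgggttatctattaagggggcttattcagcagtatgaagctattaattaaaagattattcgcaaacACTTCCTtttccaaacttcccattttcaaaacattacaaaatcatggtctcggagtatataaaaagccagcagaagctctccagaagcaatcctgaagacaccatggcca
Lyz2, chr10:117282223-117282522: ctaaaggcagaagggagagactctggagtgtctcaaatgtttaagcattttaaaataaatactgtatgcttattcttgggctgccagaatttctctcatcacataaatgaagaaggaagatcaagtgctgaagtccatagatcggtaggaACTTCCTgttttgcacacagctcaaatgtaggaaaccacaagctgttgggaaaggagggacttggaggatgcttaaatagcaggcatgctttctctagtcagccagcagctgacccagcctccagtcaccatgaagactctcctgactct
The Ly6c2 window held 2 matches on the forward strand, and the Chil3 and Lyz2 windows held 1 each, on the reverse strand. Of 32851 promoter windows of the same length, 9.35% held the motif on either strand. Ly6c1 has 2 such windows, of which 1 held 1 match and the other 0. TTGCGCAA, a form of the C/EBP site, was in 0 of these windows and in 0.183% of all windows. These matches describe letters in a window and not binding. Spi1 itself stood at 458, 477, 503 and 611 UMIs per 1000000 UMIs (CPM), counted without the 18 cells described further on that carried many transcripts of another cell type.

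Most of the Ly6c2/Chil3 cells came from a single library, TAC-4w. There were 24 in sham, 22 in TAC-2w, 132 in TAC-4w and 12 in TAC-6w, so that TAC-4w held 69.5% of them. As a share of kept barcodes they made up 0.292% in sham (0.187 to 0.434), 0.338% in TAC-2w (0.212 to 0.512), 1.96% in TAC-4w (1.64 to 2.32) and 0.215% in TAC-6w (0.111 to 0.376). The TAC-4w share was 6.71-fold that of sham (4.32 to 10.8), outside the counting error, while TAC-2w at 1.16-fold (0.620 to 2.16) and TAC-6w at 0.738-fold (0.336 to 1.53) were not distinguishable from sham at this depth. Within the shared batch, the value is that of TAC-6w against sham. Among barcodes with at least 5 Lyz2 UMIs, which are mostly myeloid cells, the shares were 1.16%, 1.12%, 10.0% and 1.18% in the same order.

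The TAC-4w library stood apart in its whole make-up, which changes what the share of Ly6c2/Chil3 cells is measured against. Cells were put in other classes by raw UMIs: B cells by Cd79a, neutrophils by Retnlg, C1q macrophages by at least 10 C1q UMIs, fibroblasts by Col1a1, Dcn and Gsn without Ptprc, and nonclassical monocytes, the patrolling type of blood monocyte, by Treml4 and Cd300e. B cells were 37.0% of the TAC-4w barcodes, against 2.83% in sham, 2.37% in TAC-2w and 12.3% in TAC-6w. Neutrophils were 16.3% in TAC-4w, against 1.56%, 1.06% and 2.99%. Fibroblasts were 5.53% in TAC-4w, against 55.4%, 50.3% and 51.2%, and C1q macrophages 1.76%, against 23.0%, 27.5% and 16.4%. Nonclassical monocytes were 0.207% in TAC-4w, against 0.182%, 0.461% and 0.0897%. So B cells and neutrophils had a larger share in TAC-4w than in the other libraries, and fibroblasts and C1q macrophages a smaller one, while nonclassical monocytes did not stand out.

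Set against neutrophils in place of all barcodes, the Ly6c2/Chil3 cells were not more frequent in TAC-4w. There were 18.8 Ly6c2/Chil3 cells per 100 neutrophils in sham, 31.9 in TAC-2w, 12.0 in TAC-4w and 7.19 in TAC-6w. The odds ratio to sham was 0.641 in TAC-4w (0.395 to 1.08), 1.70 in TAC-2w (0.840 to 3.42) and 0.384 in TAC-6w (0.168 to 0.835). Per 100 B cells there were 10.3 in sham and 5.29 in TAC-4w, an odds ratio of 0.514 (0.323 to 0.848). Against C1q macrophages, in contrast, there were 1.27 per 100 in sham, 1.23 in TAC-2w and 1.31 in TAC-6w but 111 in TAC-4w, an odds ratio of 86.9 (53.6 to 146). Nonclassical monocytes numbered only 15, 30, 14 and 5, and the odds ratio to them in TAC-4w was 5.82 (2.30 to 15.0). Whether the amount of blood, the dissociation or the constriction set the share in TAC-4w was not tested.

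**Figure D1:**
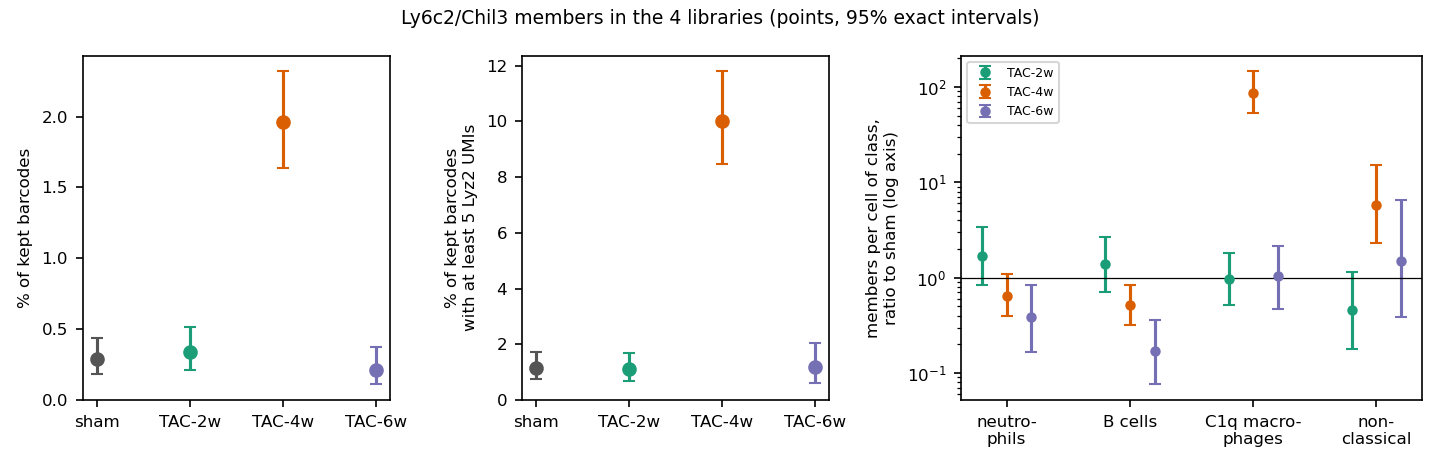
Left and middle, the Ly6c2/Chil3 cells as % of all kept barcodes and as % of kept barcodes with at least 5 Lyz2 UMIs in each library; right, their number per cell of 4 other classes as an odds ratio to sham on a log axis, with exact 95% intervals as bars. TAC-4w is the high point in the 2 left panels, while on the right its ratio lies below 1 for neutrophils and B cells and at 86.9 for C1q macrophages.

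The depth of the cells differed between libraries. The libraries had 86671674, 78587992, 48278486 and 28793316 UMIs in 10275, 7924, 8420 and 5854 barcodes, of which 8228, 6501, 6747 and 5577 were kept. The median of the kept barcodes was 9250, 10856, 4484 and 4828 UMIs, and that of the Ly6c2/Chil3 cells 8368, 10846, 11100 and 5314 UMIs. In TAC-4w the Ly6c2/Chil3 cells were thus deeper than the other barcodes of their library, unlike in sham and TAC-2w. Together they held 219552 UMIs in sham, 271656 in TAC-2w, 1517692 in TAC-4w and 67680 in TAC-6w, so precision was lowest in TAC-6w. Between libraries, 89 pairs of kept barcodes had the same sequence, and 0 of them were Ly6c2/Chil3 cells in both.

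The rule took Ly6c2 more often than Chil3. Both genes were detected in 12, 10, 94 and 8 of the cells, Ly6c2 alone in 11, 9, 31 and 2, and Chil3 alone in 1, 3, 7 and 2. The sum of Ly6c2 and Chil3 reached 3 in 763 barcodes of TAC-4w and in 146, 113 and 79 barcodes of sham, TAC-2w and TAC-6w. In TAC-4w the demand for 0 Retnlg took away the most, from 456 to 146 barcodes. Chil3 is also a neutrophil transcript, but how many of the removed barcodes were neutrophils was not tested. Of the TAC-4w neutrophils, 23.3% had 3 or more UMIs of the pair, against 17.2%, 20.3% and 19.8% of those of sham, TAC-2w and TAC-6w. B cells, which should lack the pair, reached that sum in 1.29%, 1.95%, 1.80% and 0.291% of cells, and fibroblasts in 0.0219%, 0%, 0.268% and 0.140%. At the threshold, 10 cells had a sum of exactly 3 and 16 further barcodes missed by 1 UMI, with a sum of 2 and every other condition met. Plac8 was detected in 90% of the former and 75% of the latter, and Csf1r, the receptor for macrophage colony-stimulating factor, in 70% and 81.2%.

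A few of the Ly6c2/Chil3 cells carried transcripts of other cell types in large amounts, and these cells decided many of the largest ratios. In all, 9 cells had 20 or more UMIs of S100a8 and S100a9 together, 1 in sham, 7 in TAC-4w and 1 in TAC-6w. In these 9 cells S100a8, an abundant protein of the neutrophil cytoplasm, stood at 85928 CPM and the granule protein genes Ngp and Camp at 36516 and 35972. Ccr2 was detected in 2 of the 9 and Csf1r in 2, and Ngp and Camp in 7 each, so as a group the data go against calling them classical monocytes. The 9 were not alike, since 2 cells of TAC-4w had only 38 and 43 UMIs of S100a8 and S100a9, against 768 or more in the others. What these 2 cells were was not tested. In the other 181 cells S100a8 stood at 79.5 CPM and Ngp at 6.67, and Ccr2 was detected in 163 and Csf1r in 154. Ly6c2 did not separate the groups, at 1741 and 1765 CPM. Chil3 differed, at 8587 CPM in the 9 cells and 1397 in the other 181.

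Collagen transcripts marked 7 further cells and haemoglobin 2. The collagen carriers had 36 to 245 UMIs of Col1a1, Col1a2 and Col3a1, 2 in sham, 2 in TAC-2w and 3 in TAC-4w, and no other Ly6c2/Chil3 cell had more than 3. Of these 7 cells, 6 were among those with the highest Scrublet scores, a score for barcodes that hold 2 cells. The 2 haemoglobin carriers, both in TAC-4w, had over 1000 UMIs of the 4 haemoglobin genes, and the next cell had 17. Without the 3 kinds of carrier there remained 172 cells, 21 in sham, 20 in TAC-2w, 120 in TAC-4w and 11 in TAC-6w, called the 172 monocytes from here on. This narrowing was chosen after the values had been seen. It took out only these 3 kinds of carrier, so the name stands for the set and does not settle what each cell is.

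**Figure D2:**
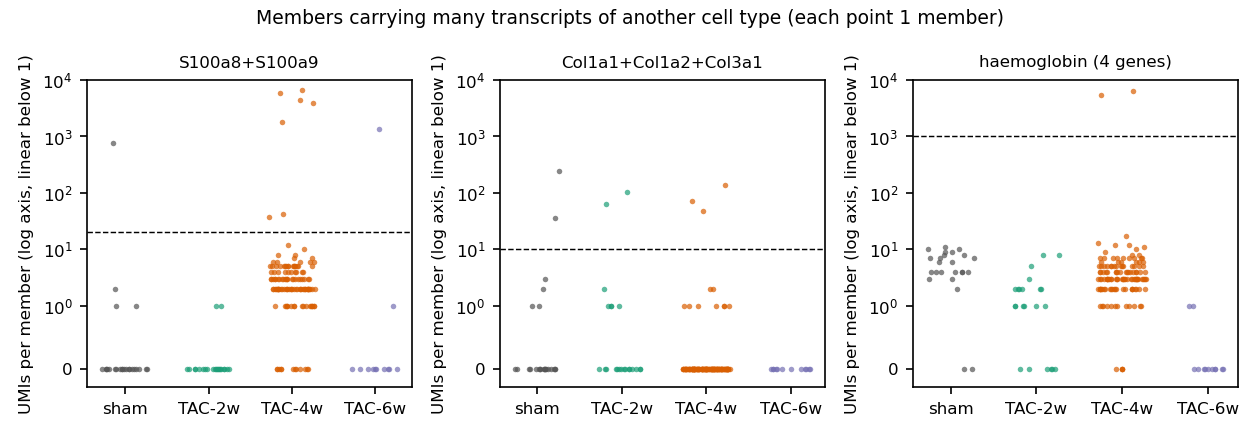
Each point is 1 Ly6c2/Chil3 cell, with its UMIs of S100a8 and S100a9, of 3 collagen genes and of 4 haemoglobin genes by library on an axis that is logarithmic above 1 and linear below, and dashed lines at 20, 10 and 1000 UMIs. The 9, 7 and 2 cells above the lines lie clearly apart from the others, except that the lowest of the S100a8 and S100a9 carriers sit close above theirs.

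In all 190 cells, haemoglobin, neutrophil granule and fibroblast genes were among those with the most extreme ratios to sham. Of the 3563 genes that reached 50 UMIs in sham or TAC-4w, 336 were at least 2-fold higher in TAC-4w than in sham (9.43%) and 158 at least 2-fold lower (4.43%). Since TAC-4w had the larger sum of UMIs, a gene with few transcripts reached 50 UMIs mainly where TAC-4w was high, which favours higher genes. With an even filter, under which the mean of both CPMs had to reach that of 50 UMIs in the shallower sum, 26 of 568 genes were higher and 41 lower, so the balance turned. The 12 highest by the near bound of the interval were Hba-a1, Hba-a2, Hbb-bt, Hbb-bs, Ctla2a, Prtn3, Ngp, Ltf, Lcn2, S100a8, S100a9 and Slpi, of which 4 are haemoglobin genes and most of the rest genes of neutrophil granules. Hba-a1 was 19.3-fold higher (12.8 to 30.5), with 53.6% of its TAC-4w UMIs in 1 cell, and without the carriers its ratio was 0.685. The 12 lowest were Mfap5, Fbln2, Mfap4, Htra3, Gsn, Spp1, Serping1, Lpl, Col3a1, Fabp5, Lmna and Rgs1, and 96.7% of the sham UMIs of Mfap5, a microfibril gene of fibroblasts, were in 1 cell. Of these genes, Ctla2a, Prtn3, S100a9, Slpi, Spp1, Fabp5 and Rgs1 were also among the 12 highest or lowest without the carriers. For S100a9 this follows from the choice of carriers, since all its sham UMIs were in 1 carrier.

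The libraries with fewer Ly6c2/Chil3 cells had fewer genes to compare. Of 778 genes, 23 were at least 2-fold higher in TAC-2w than in sham (2.96%) and 17 lower (2.19%), or 7 and 11 of 577 with the even filter. The 6 highest were Cd209a, Hspa1a, Meg3, Adamts5, Ccnd1 and Ogn, and the 6 lowest S100a8, S100a9, Camp, Ngp, Mfap4 and Mgp. Hspa1a and Ccnd1 were also the 2 highest without the carriers. Of 589 genes, 22 were higher in TAC-6w (3.74%) and 72 lower (12.2%). Here sham had the larger sum, which favours lower genes, and with the even filter 14 of 201 were higher and 13 lower. The 6 highest there, Ltf, Ngp, Wfdc21, Lcn2, S100a9 and Camp, had 99.9% or 100% of their TAC-6w UMIs in 1 cell, and the 6 lowest, Dcn, Gsn, Sparc, Col3a1, Mgp and Bgn, are genes of fibroblasts and their matrix. Levels are given for the 172 monocytes from here on, as CPM of the summed cells.

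Of the given markers outside the rule, Plac8 was detected in most of the 172 monocytes of every library and Fn1 was not. Plac8, a small cysteine-rich protein of myeloid cells, stood at 3516 CPM in sham, 2709 in TAC-2w, 4354 in TAC-4w and 4601 in TAC-6w. It was detected in 19 of 21, 20 of 20, 113 of 120 and 9 of 11 cells, so it was nearly general in each library. Ccr2, the receptor named above, stood at 731, 665, 996 and 402 CPM and was detected in 18 of 21, 13 of 20, 116 of 120 and 8 of 11 cells. Fn1, the matrix protein fibronectin, was less general, with 12 of 21, 8 of 20, 105 of 120 and 7 of 11 cells, and its median over cells was 143, 0, 927 and 196 CPM. Markers of nonclassical monocytes were present in part of the cells, since Treml4, Cd300e and Ace were all at 0 in only 15 of 24 Ly6c2/Chil3 cells of sham, 13 of 22 of TAC-2w and 10 of 12 of TAC-6w. In TAC-4w the cells with these 3 genes at 0 made up 1.53% of kept barcodes, against 1.96% for all Ly6c2/Chil3 cells. The genes of the rule, as a description, stood at 1520, 1123, 2104 and 1416 CPM for Ly6c2, at 1033, 752, 1696 and 853 CPM for Chil3, and at 19113, 11938, 34023 and 21332 CPM for Lyz2. The 12 resident macrophage genes summed to 313, 234, 137 and 129 CPM. Pf4, a chemokine also made by platelets, was the most abundant of them in sham, TAC-2w and TAC-4w, at 116, 110 and 86.6 CPM, and the transcription factor Maf in TAC-6w, at 96.5 CPM. Timd4 and Vsig4 were at 0 in all 4 libraries, and Folr2 and Lyve1 at 0 in TAC-4w and TAC-6w.

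Every cell was thinned to 1000 UMIs in 1 random draw, which removes the difference in depth and left out 1 cell of TAC-4w. Ccr2, F13a1 and Plac8 were found in a larger share of the monocytes than of the B cells of each library. Ccr2 was then detected in 23.8% of the monocytes of sham (8.22 to 47.2), 45% in TAC-2w, 57.1% in TAC-4w and 27.3% in TAC-6w, and in 0%, 1.3%, 0.241% and 0.147% of B cells, whose medians before thinning were 3254, 3789, 4479 and 2046 UMIs. A single draw moved these shares, and as the mean over all possible draws Ccr2 was at 43.6%, 35.1%, 58.9% and 29.8% of the monocytes, so its sham and TAC-2w values changed places. F13a1, a coagulation factor subunit of monocytes, was detected in 23.8% (8.22 to 47.2), 15%, 56.3% (46.9 to 65.4) and 18.2%. In B cells F13a1 was at 0.858%, 1.95%, 0.201% and 0.147%. Fn1 was detected in 19.0%, 15%, 55.5% and 27.3% of the monocytes but also in 12.2%, 12.9%, 23.9% and 9.65% of fibroblasts, which make it. Plac8 was in 76.2%, 95%, 90.8% and 81.8% of the monocytes and in 33.0%, 23.4%, 24.4% and 22.1% of B cells. In fibroblasts Plac8 was at 3.73%, 2.49%, 3.76% and 1.23%, so its B cell values are not taken as background. The sham and TAC-4w intervals of F13a1 just overlapped, and over all draws it was at 25.1%, 20.0%, 55.8% and 29.6%.

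**Figure D3:**
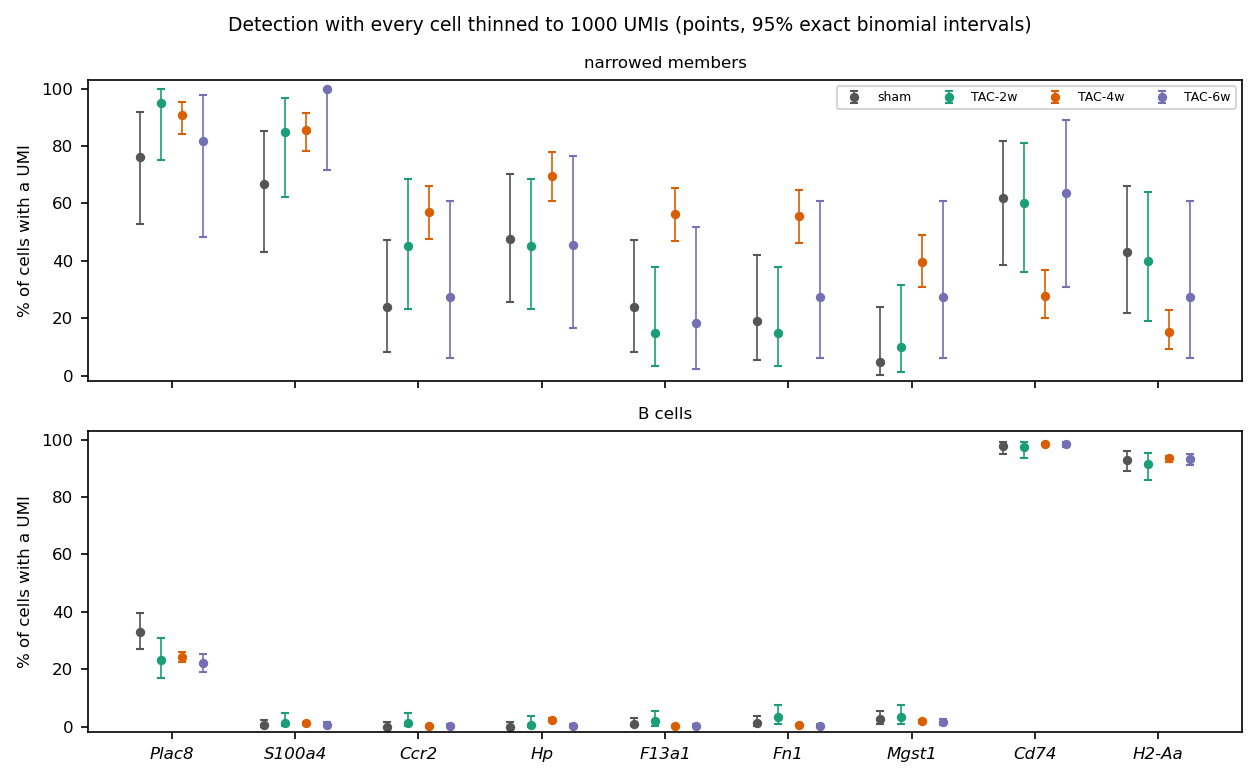
Share of cells with at least 1 UMI of each gene after thinning to 1000 UMIs in 1 random draw, for the 172 monocytes above and for B cells below, by library, with exact 95% intervals. Ccr2, Hp, F13a1, Fn1 and Mgst1 are near 0 in B cells, and Cd74 and H2-Aa, which B cells express, are lower in the TAC-4w monocytes (27.7% and 15.1%) than in the sham monocytes (61.9% and 42.9%).

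Against sham, several genes of blood monocytes were higher in the TAC-4w monocytes and others of the same list were lower. Of 3135 genes tested, 318 were at least 2-fold higher (10.1%) and 121 at least 2-fold lower (3.86%). The filter of 50 UMIs favours higher genes here too, and with the even filter 13 of 467 were higher (2.78%) and 31 lower (6.64%). Of 23 classical monocyte genes, 21 were tested, 6 were at least 2-fold higher and 3 at least 2-fold lower. With the even filter 17 were tested, and the same 6 were higher and 2 lower (Thbs1 and Clec4e). Summed without any filter, the 23 genes stood at 17152, 17380, 26675 and 22023 CPM, a TAC-4w ratio of 1.56 (1.5 to 1.62). Fn1 stood at 290, 307, 1058 and 724 CPM, a TAC-4w ratio of 3.65 (2.75 to 4.94). Ifitm6, a membrane protein of the interferon-induced family, stood at 215, 362, 826 and 467 CPM, with a ratio of 3.85 (2.77 to 5.50). In both genes TAC-4w was the highest library, TAC-6w the second and sham the lowest.

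TAC-4w was also the highest library in other genes of blood monocytes. F13a1 stood at 331, 330, 1026 and 434 CPM, and its TAC-4w ratio was 3.1 (2.38 to 4.12). Hp, the haemoglobin-binding protein haptoglobin, stood at 714, 628, 1516 and 885 CPM, a ratio of 2.12 (1.77 to 2.57). Mgst1, a glutathione transferase of membranes, stood at 215, 151, 562 and 290 CPM, a ratio of 2.62 (1.88 to 3.75). The spread between cells was wide, since F13a1 had a median over cells of 124 CPM in sham and 981 in TAC-4w, with a range from 0 to 1663 in sham and from 0 to 3386 in TAC-4w, so the cells of the libraries overlapped. Ccr2 and Plac8 differed less, at ratios of 1.36 (1.13 to 1.65) and 1.24 (1.14 to 1.35). As a mean over cells, in which each cell counts the same, the ratio of Plac8 was 1.06. Lower in TAC-4w were Thbs1, the matrix glycoprotein thrombospondin, at 0.417 of sham (0.329 to 0.533), and the C-type lectin receptors Clec4e and Clec4d at 0.498 and 0.458.

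MHC class II genes, which present antigen to CD4+ T cells, were lower in the TAC-4w monocytes. Of 8 genes 6 were tested, of which 0 were at least 2-fold higher and 4 at least 2-fold lower. Over all genes tested 10.1% were higher and 3.86% lower. The same 4 class II genes were lower among the 5 that passed the even filter, under which 6.64% of all genes were lower. H2-Aa stood at 1741 CPM in sham, 2952 in TAC-2w, 387 in TAC-4w and 1287 in TAC-6w, a TAC-4w ratio of 0.222 (0.192 to 0.257). H2-Ab1 stood at 1863, 2471, 330 and 981 CPM and H2-Eb1 at 1340, 2338, 242 and 1078 CPM, and their TAC-4w ratios were 0.177 (0.153 to 0.205) and 0.181 (0.152 to 0.215). Cd74, the invariant chain of class II, stood at 4439, 6166, 1330 and 4006 CPM, a ratio of 0.300 (0.275 to 0.327). The peptide-loading genes H2-DMa and H2-DMb1 were at 0.799 (0.609 to 1.06) and 1.18 (0.741 to 1.98) of sham, so only the classical chains and Cd74 were lower among the 6 tested. The C1q genes of macrophages, which the rule limits, were at 0 in 14 of 24 Ly6c2/Chil3 cells of sham and 126 of 132 of TAC-4w. Their part in the class II values was not tested.

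Class II transcripts were uneven between cells, and a few cells held much of the sum. H2-Aa was 0 in 7 of 21 sham monocytes, 9 of 20 in TAC-2w, 84 of 120 in TAC-4w and 8 of 11 in TAC-6w. In sham, 1 cell held 55.8% of the H2-Ab1 UMIs, and without that cell the TAC-4w ratio of H2-Ab1 was 0.348, that of H2-Eb1 0.367 and that of H2-Aa 0.331. The class II sum per cell had a median of 2670 CPM in sham, 1394 in TAC-2w, 468 in TAC-4w and 1215 in TAC-6w, and a highest value of 33756, 46041, 75325 and 27013 CPM. So TAC-4w had the lowest median and also the single highest cell. Genes of conventional dendritic cells summed to 244, 500, 188 and 177 CPM, led by Ifi205, and their part in the class II values was not tested. The cell with the most class II UMIs held 24 of 42 dendritic UMIs in sham and 54 of 109 in TAC-2w. In TAC-4w that cell held 5 of 248, and in TAC-6w 0 of 11.

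Cytokine and chemokine genes lay on both sides of sham. Of 18 cytokine and chemokine genes 11 were tested, 1 was at least 2-fold higher in TAC-4w (Cxcl10) and 3 at least 2-fold lower (Cxcl2, Il1b and Osm). The shares over all genes tested were 10.1% higher and 3.86% lower. With the even filter 8 were tested, 0 were higher and the same 3 lower. Cxcl2, a chemokine that draws neutrophils, stood at 3893 CPM in sham, 2223 in TAC-2w, 338 in TAC-4w and 4231 in TAC-6w, a TAC-4w ratio of 0.0869 (0.0769 to 0.0981). Over cells its median was 286 CPM in sham and 0 in TAC-4w, where 69 of 120 cells had none. Il1b, the cytokine interleukin-1 beta, stood at 1375, 1893, 667 and 1287 CPM, a ratio of 0.485 (0.419 to 0.562), and Osm, the cytokine oncostatin M, was at 0.369 (0.282 to 0.486). In contrast Ccl6 and Ccl9, chemokines of myeloid cells, were at 1.51 (1.28 to 1.81) and 1.70 (1.32 to 2.22), and Ccl2, which draws Ccr2 monocytes, at 0.721 (0.601 to 0.870).

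Genes of the inflammasome and of the response to NF-kB, an inflammatory switch, lay on both sides of sham. Of 12 genes of the inflammasome and NF-kB list 11 were tested, 2 were at least 2-fold higher and 5 at least 2-fold lower. Over all genes tested 10.1% were higher and 3.86% lower. With the even filter only 2 were tested, Pycard, which was higher, and Nfkbia, which was lower. Nfkbia, the inhibitor that NF-kB itself induces, stood at 1242 CPM in sham, 926 in TAC-2w, 356 in TAC-4w and 611 in TAC-6w, a TAC-4w ratio of 0.286 (0.243 to 0.338). Tnfaip3, Ptgs2, Casp4 and Nlrp3 were at 0.337, 0.439, 0.448 and 0.453 of sham, and without the sham cell with the most UMIs Nlrp3 was at 0.864. The 2 genes that were higher were Pycard, the inflammasome adaptor, at 2.03 (1.43 to 2.98), and Il18 at 2.31 (0.750 to 11.6), whose interval includes 1. Immediate early and heat shock genes, which dissociation of tissue can also raise, had 0 of 15 at least 2-fold higher and 3 lower (Atf3, Hsp90aa1 and Ier3), and their part in the values of Cxcl2, Il1b and Nfkbia was not tested.

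The 17 interferon-response genes, summed without any filter, stood at 1068, 1715, 1687 and 1480 CPM, a TAC-4w ratio of 1.58 (1.36 to 1.85) and a TAC-2w ratio of 1.61 (1.34 to 1.93). With the even filter 0 of them were tested. With 50 UMIs in either sum 11 were, of which 4 were at least 2-fold higher in TAC-4w and 0 lower. These 4, Ifi47, Isg15, Usp18 and Ifit3, had 0 to 10 UMIs in sham and passed the filter only through TAC-4w. The count and the ratios of these 4 are therefore given with nothing read from them. Ifi47, an interferon-induced GTPase, had 0 UMIs in the sham monocytes and stood at 13.8 CPM in TAC-2w, 110 in TAC-4w and 113 in TAC-6w, at least 6.33-fold higher in TAC-4w than the level of 3 UMIs in sham. Isg15, a ubiquitin-like modifier, stood at 58.0, 128, 163 and 129 CPM, a TAC-4w ratio of 2.80 (1.49 to 5.93). Usp18, which removes Isg15 from proteins, was at 4.13 (1.10 to 34.8) and Ifit3 at 2.23 (0.831 to 8.41). Irf7, the factor of the interferon response, was at 0.877 (0.624 to 1.26).

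The transcription factors of monocytes stayed within 2-fold. Of 15 genes 14 were tested, and 0 were at least 2-fold higher or lower in TAC-4w. Cebpb stood at 3220, 2787, 2108 and 2960 CPM, a TAC-4w ratio of 0.654 (0.597 to 0.718). Klf4 and Nr4a1, factors tied to Ly6c-low monocytes, were at 0.651 (0.533 to 0.799) and 0.621 (0.509 to 0.763), and Spi1 at 1.10 (0.868 to 1.40). Of 14 trafficking and adhesion genes 12 were tested, 2 were at least 2-fold higher, Itgb7 among them, and 0 lower. Among all genes tested 10.1% were higher and 3.86% lower, beside which these lists are too small to be read as more than single values. Itgb7, an integrin chain, was at 2.22 (1.34 to 3.94), Cx3cr1 at 1.83 (1.12 to 3.19) and Cxcr4, the receptor that holds cells in the bone marrow, at 0.579 (0.436 to 0.779). NADPH oxidase and lysosome genes had 0 of 11 higher and 2 lower (Ctsd and Ctsb, both lysosomal proteases). Pattern recognition genes had 0 of 10 higher and 1 lower, and 0 of 9 hypoxia and glycolysis genes passed in either direction. Nonclassical monocyte genes had 0 of 10 higher and 2 lower (Stap1 and Adgre4), and genes of dividing cells 2 of 5 higher (Ube2c and Hmgb2) and 1 lower (Pcna). Ube2c had 0 UMIs in sham and passed the filter only through TAC-4w, so nothing is read from it. With the even filter 1 gene of dividing cells was tested, Hmgb2, which was higher.

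Some general macrophage genes were lower in the TAC-4w monocytes. Of 10 general macrophage genes 8 were tested, 0 were at least 2-fold higher and 3 at least 2-fold lower. The shares over all genes tested were 10.1% higher and 3.86% lower. With the even filter 4 of these macrophage genes were tested and 1 was lower (Apoe). Lgmn, a lysosomal protease, was at 0.233 of sham (0.175 to 0.312), Trem2, a lipid receptor, at 0.262 (0.165 to 0.424) and Apoe, the lipid carrier, at 0.424 (0.391 to 0.460). Without the sham cell with the most UMIs, Trem2 was at 0.515 and Apoe at 0.548, no longer past 2-fold, while Lgmn was at 0.257. The C1q genes, which the rule limits, were at 0 in 14 of 24 Ly6c2/Chil3 cells of sham and 126 of 132 of TAC-4w. In TAC-2w they were at 0 in 10 of 22 cells and in TAC-6w in 10 of 12. Their part in these ratios was not tested. The next 3 genes were in the ranking of single genes and belong to no macrophage list used here. Spp1, the matrix protein osteopontin, stood at 476 CPM in sham, 1013 in TAC-2w, 4.56 in TAC-4w and 80.4 in TAC-6w, and was detected in 7, 4, 5 and 2 cells. Fabp5, a fatty acid-binding protein, was at 0.0611 of sham (0.0488 to 0.0763), with 58.4% of its sham UMIs in 1 cell. Cd83, a surface protein of activated antigen-presenting cells, was at 0.0603 (0.0374 to 0.0950), detected in 15 of 21 sham and 20 of 120 TAC-4w monocytes.

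**Figure D4:**
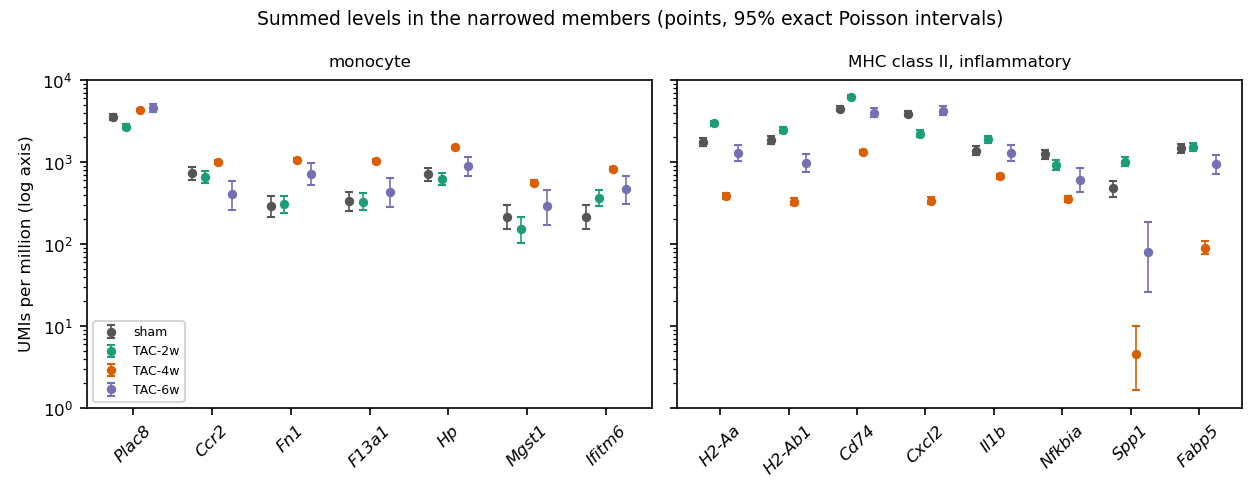
Summed level of each gene in the 172 monocytes of each library, in CPM on a log axis with exact Poisson 95% intervals, for genes of monocytes (left) and of MHC class II, inflammation and macrophages (right). On the left TAC-4w is the highest point for every gene shown but Plac8, and on the right it is the lowest for every gene shown. The genes shown are a selection. Left out are genes of the same lists that were lower (Thbs1, Clec4e and Clec4d) or higher (Pycard, Ccl6 and Ccl9) in TAC-4w than in sham.

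The ranking of single genes in the 172 monocytes also named progenitor and neutrophil transcripts. Besides Ifitm6 and Ifi47, the 12 highest in TAC-4w included Ctla2a, Prtn3, S100a9, Nrgn, Ctsg, Slpi, Gm9733, Gng11 and Slfn1. Apart from Ifitm6, these genes had 0 to 9 UMIs in sham and passed the filter of 50 UMIs only through TAC-4w. Their ranks and ratios are therefore given with nothing read from them. Prtn3, a protease of immature granules, stood at 0 UMIs in sham and 176 CPM in TAC-4w. This was 10.1-fold the level of 3 UMIs in sham, and the lower limit of the interval of its ratio was 8.14. However, 52.4% of the Prtn3 UMIs were in 1 cell. S100a9 was at 0 in sham and 148 CPM in TAC-4w, spread over 94 cells with at most 3.08% in 1 cell. Cells with 20 or more S100a8 and S100a9 UMIs had been left out, and the 1 sham cell with S100a9 was among them. The 0 in sham follows from that choice, so nothing is read from the S100a9 ratio. After thinning, S100a9 was detected in 19.3% of TAC-4w monocytes, against 19.2% of B cells and 8.06% of fibroblasts of the same library. S100a8 was detected in 10.9% of these monocytes, 13.7% of these B cells and 6.72% of these fibroblasts. So neither gene was more frequent in the TAC-4w monocytes than in B cells beyond counting error. The 12 lowest were Spp1, Fabp5, Cd83, Cxcl2, Rgs1, Bcl2a1b, Ifrd1, H2-Q7, Malt1, H2-Ab1, H2-Eb1 and Gadd45b. Lars2, a mitochondrial tRNA synthetase gene, stood at 545, 408, 854 and 627 CPM, a TAC-4w ratio of 1.56 (1.27 to 1.95). After thinning it was detected in 42.9%, 40%, 54.6% and 45.5% of the monocytes, in 63.1%, 43.5%, 64.2% and 51.8% of B cells and in 54.3%, 51.2%, 62.9% and 51.8% of fibroblasts, so it was no more frequent in the monocytes than in those classes. These shares are from the single draw, and over all draws the TAC-2w B cells were at 52.8%.

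Summed markers of other cells in the 172 monocytes differed between libraries. The 10 neutrophil genes summed to 174 CPM in sham, 202 in TAC-2w, 666 in TAC-4w and 290 in TAC-6w, led by Slpi in TAC-4w, with Cxcr2 at 0 in all 4. The B cell genes summed to 87.0, 128, 181 and 161 CPM, led by Ighm with 119 of the 181 CPM in TAC-4w, and T and NK cell genes to 29.0, 9.17, 209 and 0 CPM, led by Ccl5 where any was detected. Platelet genes summed to 0, 13.8, 156 and 0 CPM, led by Nrgn in TAC-4w, with all 8 genes at 0 in sham and TAC-6w. Cardiomyocyte genes summed to 203, 243, 17.5 and 16.1 CPM, fibroblast genes to 342, 344, 122 and 113 CPM, and red blood cell genes to 685, 179, 344 and 32.2 CPM. Their part in the differences between libraries was not tested.

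In TAC-2w the monocytes were close to sham. Of 598 genes tested, 12 were at least 2-fold higher (2.01%) and 9 at least 2-fold lower (1.51%), or 3 and 3 of 455 with the even filter. Hspa1a, the inducible heat shock protein, stood at 122, 724, 229 and 627 CPM, a TAC-2w ratio of 5.94 (3.76 to 9.87). It was detected in 4 of 21 sham and 14 of 20 TAC-2w cells, and 81.0% of its sham UMIs were in 1 cell. Sham was thus the lowest library, and the higher level was not particular to TAC-2w. Ccl4, a chemokine for T cells and monocytes, was at 2.59 (2.13 to 3.16), and at 1.99 without the TAC-2w cell with the most UMIs. Ccnd1, Ear2, Ly6a and Id3 were the others of the 6 highest, and Ccnd1 was detected in only 4 TAC-2w cells. The MHC class II genes had 1 of 6 at least 2-fold higher, H2-DMb1 at 2.65 (1.59 to 4.61), and 0 lower, and with the even filter 0 of 5 in either direction. H2-Aa was at 1.70 (1.48 to 1.95) although its median over cells was lower in TAC-2w, at 119 CPM, than in sham, at 275 CPM. The classical monocyte genes had 0 of 15 higher and 1 lower, Clec4e, at 0.443 (0.302 to 0.644).

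In TAC-6w, the only library that shares a batch with sham, the counts were low, at 11 monocytes. Of 460 genes tested, 14 were at least 2-fold higher (3.04%) and 50 at least 2-fold lower (10.9%). Because sham had the larger sum, the filter favours lower genes, and with the even filter 10 of 186 were higher and 12 lower. The 6 highest included Tmsb10, Prdx5 and the ribosomal protein genes Rps28, Rpl35 and Rps29. Prdx5, a peroxidase, was at 2.70 (2.12 to 3.43), but 54.3% of its TAC-6w UMIs were in 1 cell, and without that cell it was at 1.36 (0.995 to 1.83). Tmsb10, a small actin-binding protein, stood at 2182 CPM in sham and 6017 in TAC-6w, a ratio of 2.76 (2.38 to 3.19). The 6 lowest were Rgs1, Hbb-bs, Socs3, mt-Nd2, Spp1 and Hnrnpf, and Socs3, which damps cytokine signals, was at 0.0770 (0.00915 to 0.288). Mitochondrial genes were also lower in TAC-6w, and in all 190 cells the 11 tested had ratios from 0.225 (mt-Nd2) to 0.712 (mt-Nd3). The median mitochondrial share of the Ly6c2/Chil3 cells was 1.5% in TAC-6w and 4.06% in sham, and that of all kept barcodes 2.57% and 4.41%. Its part in the other TAC-6w ratios was not tested. Fn1 was at 2.50 (1.63 to 3.81) and Ccr2 at 0.550 (0.343 to 0.850), so in this pair of libraries Fn1 was higher, as in TAC-4w, and Ccr2 was lower. MHC class II genes had 0 of 5 past 2-fold in either direction, and Cxcl2 was at 1.09 (0.939 to 1.26). Of 12 immediate early and heat shock genes tested, 0 were higher and 4 lower (Atf3, Zfp36, Fos and Hsp90aa1), and with the even filter 7 were tested and 3 were lower (Atf3, Zfp36 and Fos).

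Compared with the other myeloid classes of the same libraries, the 190 Ly6c2/Chil3 cells differed in the genes that usually tell these classes apart. This is a description, because the rule chose the cells on related genes. Against nonclassical monocytes in the 3 libraries with at least 10 cells of both, the 8 genes with the highest ratio were F13a1, Ccr2, Wfdc17, Lgals3, Lgals1, Ccl2, Vim and Crip1. Ccr2 was 9.13- to 20.1-fold higher, at 606 CPM in the sham cells against 30.1 in sham nonclassical monocytes. The 8 lowest were Cd300e, Fabp4, Treml4, Fcgr4, Grk3, Spn, Gngt2 and Dusp16, of which Cd300e and Treml4 were used to choose nonclassical monocytes. Fcgr4, an activating Fc receptor, was at 0.0369 to 0.185 of their level.

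Against C1q macrophages the 8 highest in all 4 libraries included Hp, Plac8, Mcemp1, Cd177, Serpinb2, Slpi and Trem3. Part of the Cd177 level came from the 9 S100a8 and S100a9 carriers, at 536 CPM in them and 56.4 in the other 181 cells. Hp was 110- to 2339-fold higher, at 1485 CPM in the TAC-4w cells against 6.30 in the TAC-4w macrophages. Retnla, Pf4, Mrc1, Folr2, Cd163, Cbr2, Lyve1 and Stab1 were the lowest, of which Folr2 and Lyve1 are known markers of heart-resident macrophages. Lyve1, a hyaluronan receptor, had a single UMI in all 190 cells and 28556 in the C1q macrophages. Against neutrophils the highest were Ccr2, Ms4a6c, S100a4, Ms4a4c, Ifi30, Aif1, Ccl2 and Ly86, with Ms4a6c 28- to 90.8-fold higher. The lowest against neutrophils were G0s2, Il1r2, Acod1, Ifitm1, Clec4d, Mxd1, S100a8 and S100a9, with Il1r2, a decoy receptor for interleukin-1, at 0.00360 to 0.00939 of the neutrophil level.

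The heart sections gave a readout that the rule had not used. Each section is a slice of heart on an array of spots, and a spot is a small region that can hold several cells, so fewer monocytes and less RNA per monocyte cannot be told apart. The sections had 1676, 2063, 1228 and 2193 spots and 25996378, 48754396, 31942372 and 48288659 UMIs, and here sham and TAC-2w share batch 1 while TAC-4w was batch 2 and TAC-6w batch 3. Ly6c2 stood at 0.50 CPM in sham, 0.410 in TAC-2w, 4.73 in TAC-4w and 6.30 in TAC-6w, from 13, 20, 151 and 304 UMIs. Its ratio to sham was 0.820 in TAC-2w (0.388 to 1.79), 9.45 in TAC-4w (5.36 to 18.2) and 12.6 in TAC-6w (7.25 to 23.9). Chil3 stood at 0.115, 0.226, 4.01 and 0.331 CPM, from 3, 11, 128 and 16 UMIs, with ratios of 34.7 in TAC-4w (11.6 to 171) and 2.87 in TAC-6w (0.822 to 15.4). So both genes were higher in the TAC-4w section than in sham beyond counting error, whereas in the TAC-6w section only Ly6c2 of the pair was.

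Other monocyte genes of the sections differed in their order. Plac8 stood at 0.577, 0.349, 3.01 and 1.24 CPM, a TAC-4w ratio of 5.21 (3.01 to 9.67) and a TAC-6w ratio of 2.15 (1.21 to 4.08). Ccr2 stood at 1.81, 1.37, 3.04 and 3.64, with ratios of 1.68 (1.17 to 2.43) in TAC-4w and 2.02 (1.45 to 2.84) in TAC-6w. Lyz2, which all macrophages also express, stood at 184, 164, 342 and 333. On this scale the 3 genes were higher than sham in both later sections. In TAC-2w, Plac8 was at 0.604 of sham (0.284 to 1.3) and Ccr2 at 0.760 (0.516 to 1.13), not distinguishable from sham at this depth, and Lyz2 at 0.893 (0.861 to 0.926). Without mitochondrial and ribosomal-RNA-like features these TAC-2w ratios were 0.517 (0.243 to 1.11), 0.650 (0.441 to 0.965) and 0.764 (0.737 to 0.792). On the same scale the TAC-4w ratio of Ccr2 was 1.41 (0.982 to 2.04), an interval that includes 1. Fn1 stood at 21.3, 22.5, 24.4 and 45.1, and was 2.12-fold higher in TAC-6w (1.93 to 2.33). Its TAC-4w ratio of 1.15 (1.03 to 1.28) turned to 0.959 when mitochondrial and ribosomal-RNA-like features, which take part of each total (mitochondrial genes 51.5%, 43.4%, 42.2% and 44.2%), were left out. The 23 classical monocyte genes summed to 474, 452, 784 and 663 CPM, a TAC-4w ratio of 1.65 (1.62 to 1.69) and a TAC-6w ratio of 1.40 (1.37 to 1.43), led by Ifitm3.

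Ly6c2 and Chil3 seldom fell in the same spot. Of the spots with a Ly6c2 UMI, 0 of 12 in sham, 1 of 18 in TAC-2w, 15 of 120 in TAC-4w and 3 of 210 in TAC-6w also had a Chil3 UMI. Since endothelial cells express the near copy Ly6c1, Ly6c2 was also set against it: there were 1.58, 1.48, 10.6 and 16.1 Ly6c2 UMIs per 1000 Ly6c1 UMIs, so the order of the sections was the same. S100a8 stood at 11.5, 2.32, 39.9 and 6.44 CPM, highest in TAC-4w, and Hba-a1, from red blood cells, at 2508, 3269, 884 and 1777, lowest in TAC-4w. Cd79a, the B cell gene, stood at 0.50, 0.246, 0.532 and 0.538, a TAC-4w ratio of 1.06 (0.487 to 2.38), unlike the TAC-4w library, in which B cells were 37.0% of barcodes. The TAC-6w section thus had more Ly6c2 than sham while the TAC-6w library had a share of Ly6c2/Chil3 cells that was not distinguishable from sham, and sections and libraries were not compared by a test.

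**Figure D5:**
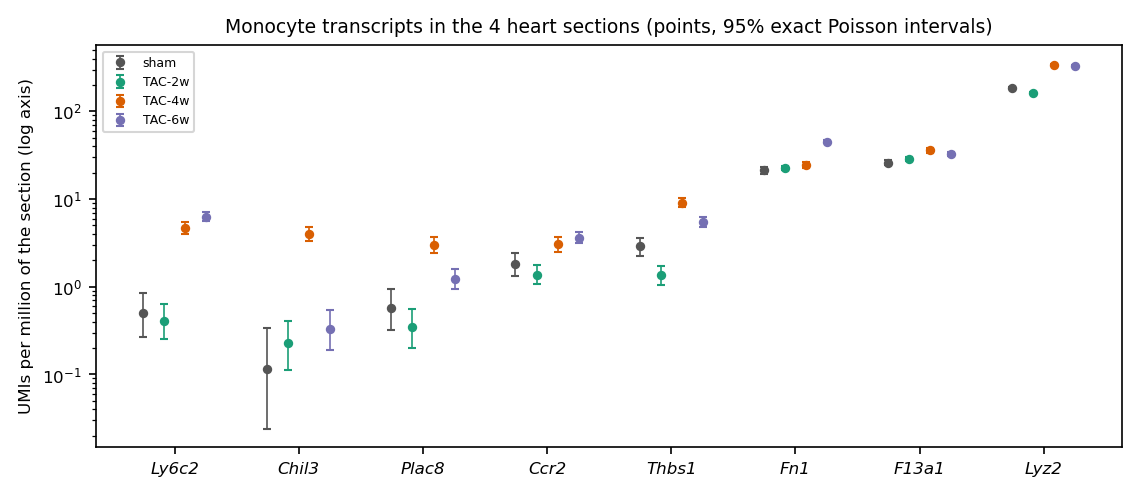
Level of 8 monocyte and myeloid genes in each heart section, in CPM of the section on a log axis, with exact Poisson 95% intervals. TAC-4w and TAC-6w lie above sham and TAC-2w for Ly6c2, Plac8, Ccr2, Thbs1, F13a1 and Lyz2, while Chil3 is high in TAC-4w alone, at 4.01 CPM.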

How the data were processed

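The deposited files hold raw UMI counts of 32285 genes, made by the authors with Cell Ranger for barcodes and Space Ranger for spots. The file headers name versions 6.0.0 and 1.2.0 and the submitters' processing notes 7.0.0 and 1.3.1, with build mm10.

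Values were computed with scipy 1.17.1 and scanpy 1.11.5 under Python 3.11.15. Counts of Ly6c2/Chil3 cells were summed per library and divided by their total. Shares have exact Clopper-Pearson, levels exact Poisson, and ratios exact conditional 95% intervals, and the interval was tested on simulated data. A gene was tested with at least 50 UMIs in either sum, and called past 2-fold at a ratio of at least 2 or at most 0.5, with the genes of the rule left out. The even filter was added after seeing the data. Genes were named from lists, or as the 12 (TAC-4w) or 6 (others) with the most extreme ratio by the bound nearest to 1, or 8 against each class. Lists hold the genes found in the files, and 4 were not. Doublets were kept in the main values; Scrublet, at an expected rate of 7%, marked the top 3.2% as an alternative. Thinning drew 1000 UMIs per cell with seed 11. The cells and gene lists were chosen with earlier results of these data known, and the 172 monocytes and the ranking in them after their values were seen. Results for some genes that met the naming rule are not reported here.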

Additional observations from a re-analysis of the deposited data

Results flagged for a closer look

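Outside the filters on genes, UMIs and mitochondrial share, 6 further barcodes of the TAC-4w library met the rule for Ly6c2/Chil3 cells, out of 1673 (0.359%, exact 95% interval 0.132 to 0.779). The level that a count of 0 allows, 3 barcodes, would be 0.179%. They were picked out because they lie in data that no comparison above uses, and because sham had 0 such barcodes among 2047. Of the 6, 5 had more than 30000 UMIs and 1 had at least 15% mitochondrial UMIs, and their median was 32168 UMIs. TAC-2w had 1 such barcode and TAC-6w 0.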

How the results depend on the processing

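The 39 ratios of shares to sham stayed within the interval of the reported ratio in all alternatives run, and the TAC-4w ratio ranged from 4.91 to 9.32. The shares themselves depended on the rule and on what they were divided by. With Lyz2 of at least 1 they were 0.498% in sham, 0.523% in TAC-2w and 2.45% in TAC-4w. With Treml4, Cd300e and Ace at 0 they were 0.182%, 0.200% and 1.53%, and among barcodes with at least 5 Lyz2 UMIs 1.16%, 1.12%, 10.0% and 1.18% (TAC-6w). TAC-4w was 3.2% with a mitochondrial share under 5%, 1.64% without filters and 2.76% with cells thinned to 1000 UMIs.

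Counts of genes past 2-fold followed the minimum number of UMIs, which sets how many genes are tested. For TAC-4w, 870 were higher and 456 lower with at least 20 UMIs, 65 and 27 with at least 200, 31 and 7 after thinning, and 39 and 72 where the whole interval had to be past 2-fold. For TAC-2w these were 142 and 76, 3 and 3, 2 and 3, and 11 and 8, and 14 were higher without the top Scrublet scores. For TAC-6w they were 53 and 329, 11 and 14, 7 and 8, and 32 lower by the whole interval, and 14 were higher with S100a8 and S100a9 under 20 UMIs. Without the carrier cells, an alternative added after seeing the data, 12 were higher and 9 lower in TAC-2w, and 14 higher in TAC-6w. With the even filter, also added then, higher and lower genes were 26 and 41 in TAC-4w, 7 and 11 in TAC-2w, and 14 and 13 in TAC-6w.

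In TAC-4w, Hba-a1, Hba-a2 and Hbb-bs turned from higher to 0.685, 0.488 and 0.455 of sham without the carriers. Leaving out the cell with the most UMIs, also added after seeing the data, gave 0.888 for Ogn, 3.56 for Mfap4 and 1.97 for Mgp in TAC-2w, where Mgp was also at 2.56 with Ly6c2 and Chil3 of at least 6. In TAC-6w it gave 0 for Ltf, Ngp, Wfdc21, Lcn2 and Camp and 0.00814 for S100a9. Of 256 ratios of named genes, 167 stayed within their interval.

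The classical monocyte sum of the sections was 984, 802, 1362 and 1193 CPM without mitochondrial and ribosomal-RNA-like features, and as a mean over spots 445 in sham, 773 in TAC-4w and 645 in TAC-6w. As the mean over all draws, added after seeing the data, the thinned shares of the 190 cells stayed within the intervals of the single draw. The share of TAC-2w B cells with Lars2 did not, at 52.8% against 43.5% (35.5 to 51.7) in the single draw. No paired analysis was possible because each condition had 1 library and 1 section and no result came from a test. The 12 cells of TAC-6w and the 24 of sham limit what could be seen in genes with low counts.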
